A study of Mus musculus with 4 samples.

Results

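The ZBTB genes encode transcription factors that carry a BTB domain at the amino terminus and C2H2 zinc fingers towards the carboxyl terminus. The fingers bind DNA. The BTB domain pairs the proteins with each other and recruits corepressors such as NCOR and histone deacetylases, or the ubiquitin ligase scaffold CUL3, so that many members act as repressors. In lymphocytes the family is known for factors that set lineage and effector programmes, among them Zbtb7b (ThPOK) in CD4+ T cells, Zbtb32 (repressor of GATA), Zbtb17 (MIZ-1) and Zbtb1. The genes described here are the protein-coding genes of the count table whose mouse symbol is Zbtb followed by a number, with 1 such gene not reported here. They number 40 of the 55487 gene IDs in the table. The symbol also takes in Zbtb8os, which encodes archease, a cofactor of the tRNA ligase complex, and not a BTB zinc finger protein.

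RNA sequencing was done on group 2 innate lymphoid cells (ILC2s), tissue-resident lymphocytes without antigen receptors, sorted from mouse colon. All cells were held in vitro with the alarmins IL-33 and IL-25 and with IL-7 and IL-2. There were 2 control libraries and 2 libraries of cells given FK866 for 16 h. FK866 is a small-molecule inhibitor of NAMPT, the enzyme that salvages nicotinamide into NAD+. The labels give no strain, age or sex, no dose of FK866 and no vehicle for the controls, and do not say whether the replicates came from separate animals or cultures, so the spread behind each p-value is that between these libraries and may be technical.

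Library totals ran from 27617750 to 37841233 counts. FK866 replicate 2 stood apart with 22461 gene IDs at 10 or more counts, against 17152 to 18667 in the other libraries. Of 10 ILC2 markers all were detected, with Gata3 between 698.6 and 1082 CPM (counts scaled to a common library size) and summed levels of 4078 to 4394 CPM in controls and 3079 to 3729 CPM with FK866. Of the 10, 2 fell and 1 rose, beside 7.89% and 5.31% of all tested genes. DESeq2 called 2 lower and 2 higher. Nmur1 fell from 764.5 and 741.3 to 313.8 and 352.2 CPM (log2 -1.18, edgeR adjusted p = 0.00147). Il13 fell from 161.3 and 117.6 to 65.0 and 34.6 CPM (log2 -1.49, edgeR adjusted p = 0.0118). Hes1 rose from 5.45 and 4.36 to 8.53 and 11.6 CPM (log2 1.03, edgeR adjusted p = 0.0482). Dendritic cell and macrophage markers summed to 31.0 to 42.0 CPM in controls and 36.3 to 48.1 CPM with FK866, most of it Xcr1, and 6 of the 9 stayed under 1 CPM in every library, Clec9a and Itgax among them. T cell markers summed to 302.2 to 327.8 CPM in controls and 235.6 to 270.4 CPM with FK866, mostly from the constant-region genes Trbc1 and Trbc2, while Cd3g lay between 14.4 and 15.4 CPM, Cd4 between 1.78 and 3.49 CPM, Cd3e between 1.32 and 2.15 CPM and Trac and Cd8a under 1 CPM. For B cells the sums were 88.8 to 121.7 and 61.3 to 77.0 CPM, most of it Ighm (42.0 to 86.8 CPM) and Cd79b (18.2 to 34.2 CPM), both lower in each FK866 library than in each control but not called (edgeR adjusted p = 0.0878 and 0.0594), with Cd79a under 1 CPM. Epithelial markers gave 42.7 to 56.3 and 28.2 to 41.0 CPM, most of it Epcam (not called, edgeR adjusted p = 0.108), with Krt8 at 0. Cdh1 went the other way, from 0 and 0.644 CPM in controls to 1.48 and 1.94 CPM with FK866. It was not called (log2 2.42, edgeR adjusted p = 0.222). Krt20, under 1 CPM in every library, was also higher in each FK866 library than in each control and not called. ILC3 markers, led by Il22, gave 151.1 to 268.3 and 80.1 to 221.9 CPM. Il23r of that list rose from 1.05 and 1.29 CPM to 6.08 and 3.62 CPM (log2 2.05, edgeR adjusted p = 0.0172), while Il22 overlapped between the groups. Ncr1 of the same list went the other way, from 2.67 and 3.13 CPM to 1.82 and 1.56 CPM, without overlap. It was not called (log2 -0.78, edgeR adjusted p = 0.262). Mast cell and basophil markers summed to at most 2.03 CPM. In bulk RNA, a lower share of a cell type and less RNA per cell cannot be told apart. The part of these other cells in the ZBTB values was not tested.

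More ZBTB genes were higher with FK866 than lower. Of 38 members with enough counts to test, 8 rose and 3 fell (quasi-likelihood test of edgeR at an adjusted p under 0.05, with Benjamini-Hochberg adjustment over all 19194 tested genes). The risers were Zbtb2, Zbtb5, Zbtb17, Zbtb21, Zbtb39, Zbtb43, Zbtb44 and Zbtb49, and the genes that fell were Zbtb32, Zbtb42 and Zbtb8os, of which the last is not a BTB zinc finger gene. Calls took in 28.9% of the tested members, beside 13.2% of all tested genes. By direction the members stood at 21.1% called higher, beside 5.31% of all genes, and at 7.89% called lower, the same share as the 7.89% of all genes. These shares were not matched for level. The median log2 CPM was 3.87 over the members, 2.19 over all tested genes and 4.05 over the protein-coding ones. With a minimum count of 50, 11 of 37 members were called higher and 3 lower, beside 1798 and 1639 of 11756 genes. The median log2 fold change (FK866 over control) was 0.21 over the members and 0.03 over all tested genes, and the middle 50% of the members lay between -0.42 and 0.94, against -0.46 and 0.55 for all genes. Both FK866 libraries lay above both controls for 20 members, or 52.6%, beside 28.4% of all genes, and below both for 11 members, or 28.9%, beside 29.3% of all genes. The family as a whole held 0.0734% and 0.0742% of the counts in control replicates 1 and 2, and 0.0984% and 0.0986% in FK866 replicates 1 and 2. Both counts depended on single libraries. Without FK866 replicate 1 fewer members were called higher, and without control replicate 1 more were called lower. Without FK866 replicate 2 none of the 3 lower genes was called. Their log2 fold changes were then -1.05 (Zbtb32), -1.24 (Zbtb42) and -0.52 (Zbtb8os). In each of these fits the matching count over all tested genes moved in the same direction as that of the members. Without control replicate 2 the medians of the members and of all genes were both 0.19.

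**Figure D1:**
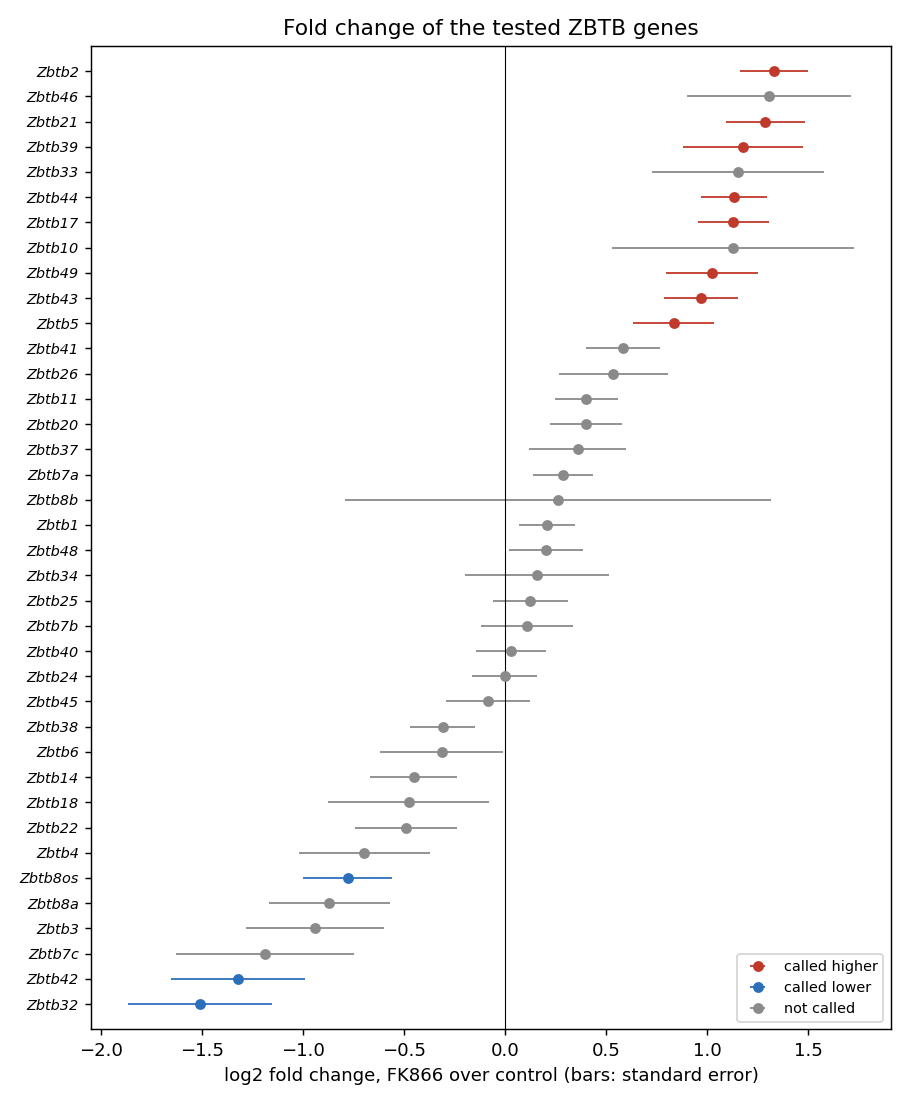
Log2 fold change (x axis, FK866 over control) of each of the 38 tested ZBTB genes (y axis, ordered by fold change), with bars for the standard error. The 8 genes called higher sit between 0.84 and 1.33, the 3 called lower between -1.51 and -0.78, and 27 genes were not called.

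The steepest called rise was that of Zbtb2 (ENSMUSG00000075327, mm10 chr10:4367075-4388108, minus strand), a nuclear repressor linked to the p53 pathway. Its level was 18.3 and 19.0 CPM in control replicates 1 and 2 and 49.5 and 44.5 CPM in FK866 replicates 1 and 2. The groups did not overlap, and the replicates within each group lay close together. The log2 fold change was 1.33 ± 0.17 (SE, n = 2 per group; edgeR adjusted p = 0.00306), and leaving out single libraries gave 1.16 to 1.43 with the call kept each time.

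Zbtb17 (ENSMUSG00000006215, chr4:141444654-141467930, plus strand) encodes MIZ-1, a partner through which MYC represses genes and a factor that sustains IL-7 receptor signalling in lymphoid progenitors. Control replicates 1 and 2 held 48.2 and 39.8 CPM, and FK866 replicates 1 and 2 held 108.6 and 84.4 CPM. Every FK866 value was above every control value, with a log2 fold change of 1.13 ± 0.18 (SE, n = 2; edgeR adjusted p = 0.00624). Per kilobase of exon, Zbtb17 was the most abundant member over the 4 libraries, at 11.4 CPM per kb in controls and 24.9 CPM per kb with FK866. Fits to 3 libraries gave 0.84 to 1.32 and kept the call.

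The bases just before the RefSeq start site (GRCm38) of the member with the steepest rise, of the most abundant riser and of the member with the deepest fall, Zbtb32, are shown because they differ in CG content, with each CG pair in capitals. Each stretch is 250 bases long and written 5′ to 3′ on the strand of the gene.
Zbtb2, chr10:4388109-4388358, minus strand: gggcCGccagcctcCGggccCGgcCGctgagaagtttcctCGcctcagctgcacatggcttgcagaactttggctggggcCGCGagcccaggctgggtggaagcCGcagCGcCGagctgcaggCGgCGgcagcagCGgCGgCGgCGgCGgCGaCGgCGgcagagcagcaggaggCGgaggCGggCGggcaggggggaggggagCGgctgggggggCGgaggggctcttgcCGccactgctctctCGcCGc
Zbtb17, chr4:141444423-141444672, plus strand: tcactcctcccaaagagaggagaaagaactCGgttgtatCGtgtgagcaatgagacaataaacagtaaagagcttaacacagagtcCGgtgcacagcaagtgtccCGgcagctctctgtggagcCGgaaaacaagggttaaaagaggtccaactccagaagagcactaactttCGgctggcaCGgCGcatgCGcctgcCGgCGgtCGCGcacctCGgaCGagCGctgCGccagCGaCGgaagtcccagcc
Zbtb32, chr7:30598910-30599159, minus strand: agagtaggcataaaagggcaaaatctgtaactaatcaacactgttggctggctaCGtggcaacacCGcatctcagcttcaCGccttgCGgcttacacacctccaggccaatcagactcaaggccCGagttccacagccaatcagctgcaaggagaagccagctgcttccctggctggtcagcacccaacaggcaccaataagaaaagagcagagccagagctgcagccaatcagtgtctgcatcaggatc
These stretches hold 28, 19 and 5 CG pairs. RefSeq lists 2 start sites for Zbtb17 and 2 for Zbtb32, and the outermost is shown. The full promoter windows, 250 bases before to 50 after the start, hold 33 CG pairs at Zbtb2, 26 at either start of Zbtb17, and 10 and 3 at the starts of Zbtb32. Over the 49 windows of the 36 members in the RefSeq table the median was 25 CG pairs, beside 7 over all 32851 windows. The other called genes did not split by direction in this respect: Zbtb42, which fell, had 40 CG pairs and Zbtb8os 19, while the risers had between 17 (Zbtb5) and 42 (Zbtb39).

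Zbtb21 (ENSMUSG00000046962, chr16:97943357-97962622, minus strand) encodes a repressor of the family that binds other BTB proteins. It stood at 25.9 and 19.4 CPM in control replicates 1 and 2 and at 59.9 and 51.0 CPM in FK866 replicates 1 and 2. The groups were well apart, with a log2 fold change of 1.29 ± 0.19 (SE, n = 2; edgeR adjusted p = 0.00569). Zbtb44 (ENSMUSG00000047412, chr9:31030644-31075885, plus strand) was measured at 26.7 and 32.1 CPM in the controls and 66.1 and 62.6 CPM with FK866. That is a log2 fold change of 1.13 ± 0.16 (SE, n = 2; edgeR adjusted p = 0.00475). Zbtb43 (ENSMUSG00000026788, chr2:33450287-33468559, minus strand) went from 22.9 and 19.0 CPM to 43.3 and 38.9 CPM. Its log2 fold change was 0.97 ± 0.18 (SE, n = 2; edgeR adjusted p = 0.0115). Of the 8 risers, these 3 together with Zbtb2 and Zbtb17 were called under each alternative tried, including each left-out library.

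The other 3 risers were less firm. Zbtb49 (ENSMUSG00000029127, chr5:38189735-38220457, minus strand), a factor reported to activate the cell cycle inhibitor gene Cdkn1a, had 14.2 and 11.4 CPM in control replicates 1 and 2 and 29.9 and 22.3 CPM in FK866 replicates 1 and 2. Its log2 fold change was 1.02 ± 0.23 (SE, n = 2; edgeR adjusted p = 0.0219), and without FK866 replicate 1 it was 0.70 and not called (adjusted p = 0.152). Zbtb5 (ENSMUSG00000049657, chr4:44991242-45012412, minus strand), described as a repressor of Cdkn1a, had 12.9 and 11.4 CPM against 22.2 and 21.2 CPM. Here the groups were tight and apart, at a log2 fold change of 0.84 ± 0.20 (SE, n = 2; edgeR adjusted p = 0.0292), but the call did not hold in the fit without FK866 replicate 1 (adjusted p = 0.156) or without FK866 replicate 2 (0.0653), and 13.0% of the exon bases of Zbtb5 lie in an exon of 1700055D18Rik on the other strand. The third, Zbtb39 (ENSMUSG00000044617, chr10:127739538-127747349, plus strand), was a low transcript, at 3.25 and 4.05 CPM in controls and 9.05 and 7.47 CPM with FK866. Its log2 fold change of 1.18 ± 0.30 (SE, n = 2; edgeR adjusted p = 0.0341) was not called without control replicate 1 (adjusted p = 0.101), without FK866 replicate 1 (0.185) or with the trend of counts with transcript length and GC content removed (0.90, adjusted p = 0.0785).

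**Figure D2:**
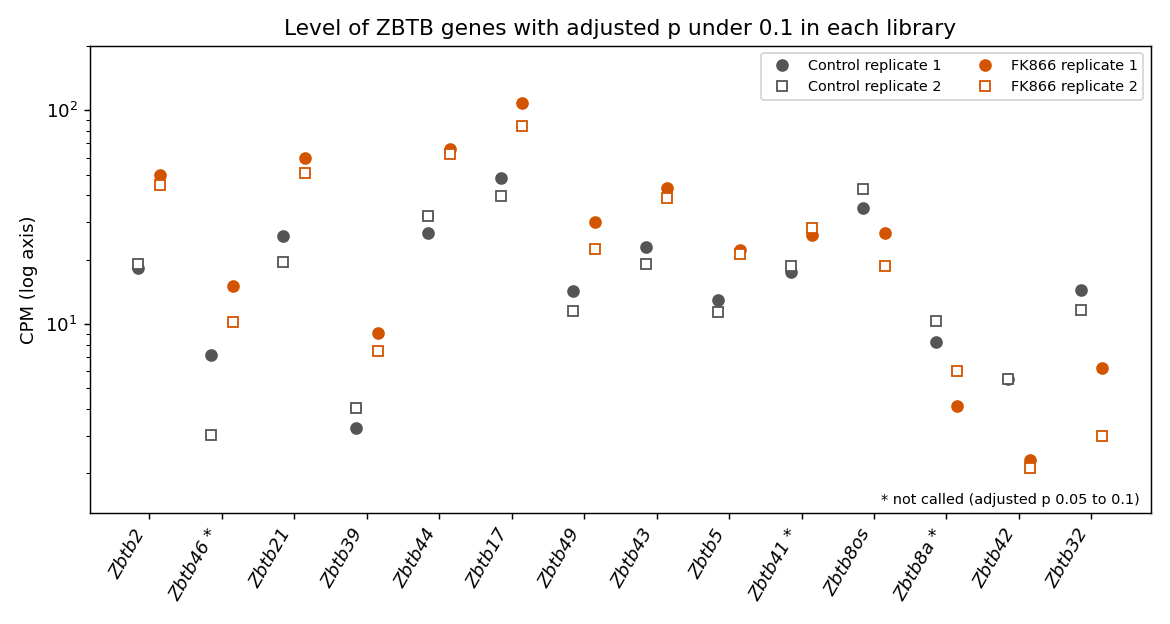
Level in CPM (log axis) in each of the 4 libraries for the 14 ZBTB genes with an adjusted p under 0.1, ordered by fold change; circles are replicate 1, open squares replicate 2, grey control and orange FK866, and an asterisk marks the 3 genes not called. The groups do not overlap for any of the 14, and the 2 replicates of a group lie farthest apart for Zbtb46 and Zbtb32.

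The deepest fall was in Zbtb32 (ENSMUSG00000006310, chr7:30589681-30598909, minus strand), a repressor found in activated lymphocytes that was named for its binding of GATA3, the factor on which ILC2s depend. It went from 14.4 and 11.7 CPM in control replicates 1 and 2 to 6.19 and 3.0 CPM in FK866 replicates 1 and 2. Both FK866 values were below both control values, and they differed from each other by more than the controls did in proportion. The log2 fold change was -1.51 ± 0.36 (SE, n = 2; edgeR adjusted p = 0.0273). Gata3 itself had a log2 fold change of -0.40 ± 0.14 (SE, n = 2) that did not pass (edgeR adjusted p = 0.0921). Zbtb42 (ENSMUSG00000037638, chr12:112678828-112682747, plus strand), a close relative of Zbtb18 first described in muscle, was measured at 5.50 and 5.52 CPM in controls and 2.30 and 2.12 CPM with FK866. This gave a log2 fold change of -1.32 ± 0.33 (SE, n = 2; edgeR adjusted p = 0.0338) at low counts. Zbtb8os (ENSMUSG00000057572, chr4:129335695-129354547, plus strand) was at 34.7 and 42.8 CPM in controls and 26.7 and 18.6 CPM with FK866, a log2 fold change of -0.78 ± 0.22 (SE, n = 2) just inside the threshold (edgeR adjusted p = 0.0499). None of these 3 was called without FK866 replicate 2, the library with the most gene IDs at 10 or more counts. Zbtb32 was then at -1.05, Zbtb42 at -1.24 and Zbtb8os at -0.52. Over all tested genes, too, fewer were called lower in that fit.

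**Figure D3:**
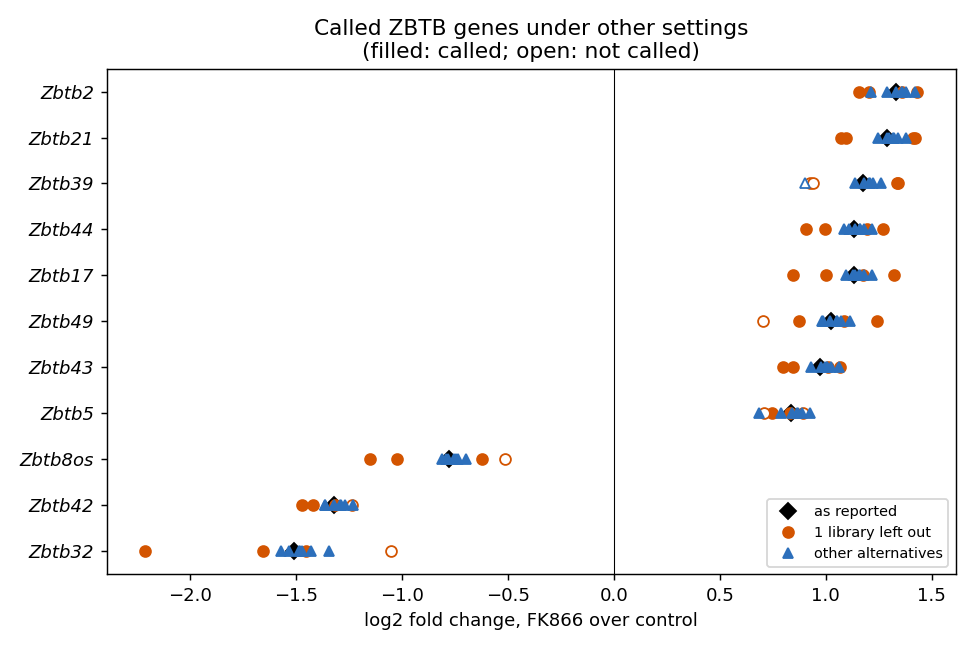
Log2 fold change (x axis) of the 11 called ZBTB genes (y axis) as reported (black diamonds), with 1 library left out (orange circles) and under the other alternatives (blue triangles); filled symbols passed the test and open ones did not. Every symbol stays on the side of 0 of the reported value, and the 3 lower genes each have an open circle, the fit without FK866 replicate 2.

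Another 3 members had an adjusted p between 0.05 and 0.1. Zbtb46, known as a marker of classical dendritic cells, was measured at 7.18 and 3.01 CPM in control replicates 1 and 2 and 15.1 and 10.2 CPM in FK866 replicates 1 and 2. The groups did not overlap, but the replicates within each group differed. The log2 fold change of 1.31 ± 0.41 (SE, n = 2) did not pass (edgeR adjusted p = 0.0685). It was called higher without control replicate 1 (1.97) and without FK866 replicate 2 (1.57). DESeq2 (1.33, adjusted p = 0.0122), a minimum count of 50 and no filter on low counts also called it. Without control replicate 2 (0.81) and without FK866 replicate 1 (0.91) it was not called. Library totals, upper quartile scaling and removal of the length and GC trend did not call it either. Of the dendritic cell and macrophage markers, Clec9a, Flt3, Itgax and Cd209a were each under 1 CPM in all 4 libraries. Xcr1 lay between 29.2 and 43.5 CPM over the 4 libraries, with the groups overlapping and a log2 fold change of 0.12 (edgeR adjusted p = 0.806). Adgre1 was at 0.165 and 0.951 CPM in controls and 3.45 and 1.15 CPM with FK866, with a log2 fold change of 2.04 that did not pass (edgeR adjusted p = 0.158). The part of such cells in the Zbtb46 values was not tested. Zbtb41 was at 17.6 and 18.6 CPM in controls and 26.1 and 28.1 CPM with FK866 (log2 0.58 ± 0.18, SE, n = 2; edgeR adjusted p = 0.0697), and it was called by DESeq2 (adjusted p = 0.0402) and with a minimum count of 50, while it stood at 0.38 (adjusted p = 0.184) after removal of the length and GC trend. Zbtb8a was at 8.20 and 10.3 CPM against 4.12 and 6.0 CPM (log2 -0.87 ± 0.30, SE, n = 2; edgeR adjusted p = 0.0944), and passed the test at -1.12 in the fit without control replicate 1 (adjusted p = 0.0163).

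The most abundant members that were not called had small differences. Zbtb7a (LRF), a repressor active in haematopoietic lineage choice and described as a brake on glycolytic genes, was the highest of them per length, at 13.2 CPM per kb in controls and 16.2 CPM per kb with FK866. Its levels were 98.5 and 81.8 CPM in the controls and 115.8 and 104.7 CPM with FK866, so that the groups stood close without overlap. The log2 fold change was 0.29, with a 95% interval of the difference from -0.05 to 0.63 (edgeR adjusted p = 0.246), and it was called higher with the length and GC trend removed (0.49, adjusted p = 0.028). It stood at 0.12 without FK866 replicate 1 (adjusted p = 0.829) and at 0.16 without control replicate 2 (0.613). Zbtb25, which is linked to the control of NFAT target genes in T cells, came next, at 11.1 CPM per kb in controls and 12.1 CPM per kb with FK866. In the 4 libraries it was at 30.4 and 38.8 CPM (controls) and 34.6 and 40.9 CPM (FK866), with the groups overlapping (log2 0.13, interval -0.30 to 0.55, edgeR adjusted p = 0.728). It was at -0.14 without control replicate 1, at 0.31 without control replicate 2 and at 0.02 without FK866 replicate 2. Zbtb24, mutated in an immunodeficiency with unstable centromeres, had 34.2 and 37.7 CPM in controls and 35.0 and 36.8 CPM with FK866. Its log2 fold change was 0.00, with an interval from -0.37 to 0.37 (edgeR adjusted p = 0.999), so that a 2-fold change in either direction lies outside the interval.

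Several further members with known functions in lymphocytes or chromatin did not pass the test. Zbtb1, required for lymphoid development, had a log2 fold change of 0.21 (interval -0.11 to 0.52), and Zbtb7b of 0.11 (interval -0.41 to 0.63). For Zbtb20, a repressor active in plasma cells and liver, it was 0.40 (edgeR adjusted p = 0.181), and for Zbtb11, a nuclear factor needed for the expression of mitochondrial genes, also 0.40 (adjusted p = 0.130, called with a minimum count of 50). The 3 readers of methylated DNA in the family stood on both sides of 0: Zbtb33 (Kaiso) at 1.15 (adjusted p = 0.113), Zbtb38 at -0.31 (0.258) and Zbtb4 at -0.69 (0.204). Zbtb33 was low, at 1.49 and 1.41 CPM in controls and 3.82 and 2.65 CPM with FK866. Zbtb4 was called lower without control replicate 1. Zbtb48 (TZAP), which binds telomere repeats, was at 0.20, and Zbtb40 at 0.03.

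The remaining tested members that were not called were Zbtb7c (-1.18), Zbtb3 (-0.94), Zbtb22 (-0.49), Zbtb18 (-0.48), Zbtb14 (-0.45), Zbtb6 (-0.31), Zbtb45 (-0.08), Zbtb34 (0.16), Zbtb8b (0.26), Zbtb37 (0.36), Zbtb26 (0.54) and Zbtb10 (1.13). Zbtb18 is the neuronal repressor RP58, and Zbtb10 is known for repressing genes of SP factors. Zbtb7c was called lower without control replicate 1 or FK866 replicate 1, Zbtb3 without control replicate 1, and Zbtb10 was called higher without control replicate 2. For Zbtb37, 15.6% of the exon bases overlap Serpinc1 on the other strand. Zbtb8b held between 3 and 37 counts, and its interval ran from -2.13 to 2.66. In all, 18 of the 38 tested members (47.4%) had an unadjusted p under 0.05, beside 28.0% of all tested genes.

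Only 2 members were not tested. Zbtb12 held 4 to 11 counts in a library. Zbtb9 is listed at 0 in all 4 libraries, and 84.4% of its exon bases lie in exons of Ggnbp1 on the same strand.

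**Figure D4:**
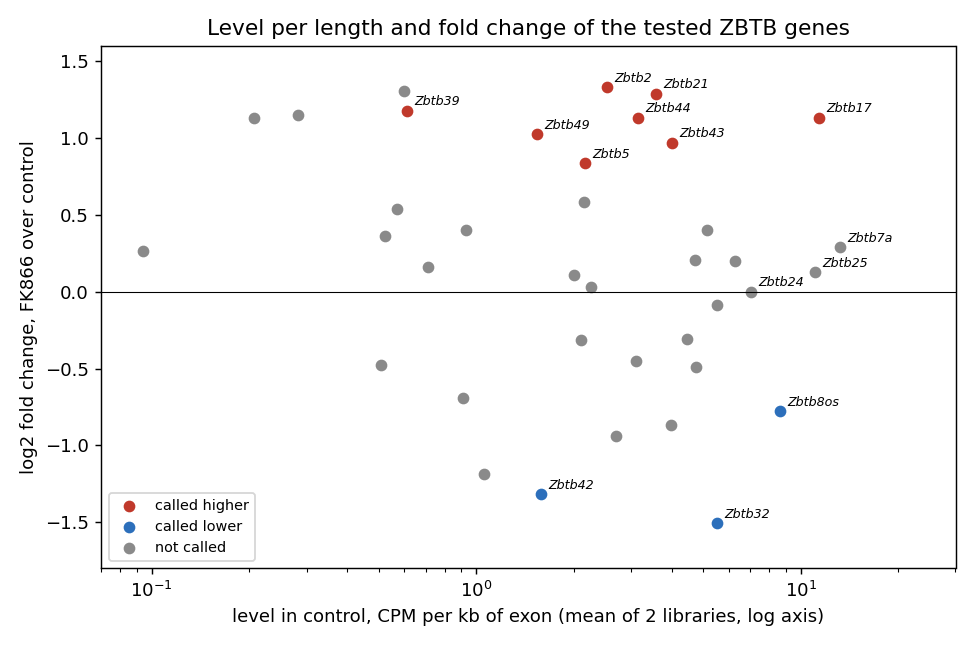
Control level in CPM per kb of exon (x axis, log scale, mean of 2 libraries) against log2 fold change (y axis) for the 38 tested ZBTB genes, with the called genes and the 3 most abundant genes not called named. The 8 genes called higher ran from 0.612 (Zbtb39) to 11.4 (Zbtb17) CPM per kb in controls, and the 3 called lower from 1.58 (Zbtb42) to 8.61 (Zbtb8os).

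Some members are neighbours in the genome. Zbtb25 and Zbtb1 lie 663 bases apart, start to start, on opposite strands of chromosome 12, and both had small differences (0.13 and 0.21). Zbtb34 and Zbtb43 follow each other on chromosome 2 with a gap of 19.0 kb, and of these only Zbtb43 was called higher. Its neighbour Zbtb34 stood at 0.16, with an interval from -0.65 to 0.97. The gene spans of Zbtb8os and Zbtb8a overlap end to end by 920 bases on chromosome 4. Their exons overlap over 5.9% and 11.4% of the exon bases of each, and they had log2 fold changes of -0.78 and -0.87, the second not called. Reads of this overlap cannot be told apart here, since the libraries do not mark the strand. Zbtb6 and Zbtb26 lie on the same strand and share 8.8% and 4.7% of their exon bases, with log2 fold changes of -0.31 and 0.54, neither of which passed.

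Promoter windows were searched on both strands for 6 motifs: TGACGTCA (bound by CREB and ATF factors), TGATGNAAN (ATF4 with C/EBP partners), TTTCCCGC (E2F), CACGTG (MYC and related E-box factors), GTAAACA (FOXO) and CCGGAAGT (ETS). No match overlapped one of another motif. CACGTG was in 6 of the 49 windows of the members (12.2%), beside 7.15% of all windows, and those 6 belong to Zbtb11, Zbtb21, Zbtb24, Zbtb25 (both starts) and Zbtb49. The windows of the Zbtb25 starts overlap, and their match is the same site. TGACGTCA was in 2 windows (4.08%, beside 1.79%), those of Zbtb11 and Zbtb21. CCGGAAGT was in 4 (8.16%, beside 3.89%), those of Zbtb11, Zbtb37, Zbtb41 and Zbtb45, and GTAAACA in 1 (2.04%, beside 3.65%), that of Zbtb5. TTTCCCGC and TGATGNAAN were in 0 member windows, beside 1.07% and 3.95% of all. The shares were not matched for CG content, and the member windows held a median of 25 CG pairs, beside 7 over all windows. The 3 risers with a match are shown in stretches of 120 bases, with the motif in capitals.
Zbtb21, chr16:97962603-97962722, minus strand: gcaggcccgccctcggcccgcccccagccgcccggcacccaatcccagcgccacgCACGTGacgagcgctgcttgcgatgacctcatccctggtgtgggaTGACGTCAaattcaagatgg
Zbtb49, chr5:38220525-38220644, minus strand: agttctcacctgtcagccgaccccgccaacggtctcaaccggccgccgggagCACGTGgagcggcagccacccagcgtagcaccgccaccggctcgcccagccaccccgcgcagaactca
Zbtb5, chr4:45012483-45012602, minus strand: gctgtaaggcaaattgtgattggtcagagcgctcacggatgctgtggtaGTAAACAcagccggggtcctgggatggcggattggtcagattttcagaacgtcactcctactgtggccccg
In Zbtb21 the capitals mark CACGTG and, at the first base of the transcript, TGACGTCA; in Zbtb49 they mark CACGTG and in Zbtb5 GTAAACA. The other called genes had none of the 6 motifs in these windows.

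Among BTB zinc finger genes that carry other symbols, 3 of 7 tested rose and 0 fell (2 at an unadjusted p under 0.05, and 1 called lower by DESeq2), beside 5.31% and 7.89% of all tested genes, with a median log2 fold change of 0.33 beside 0.03 over all genes. Bcl6, the repressor that guides follicular helper T cells and germinal centre B cells, was at 1.35 and 3.22 CPM in controls and 26.0 and 21.3 CPM with FK866. Its log2 fold change of 3.38 ± 0.39 (SE, n = 2; edgeR adjusted p = 0.00204) was larger than that of any of the 38 tested members. Zfp131 rose from 36.0 and 28.4 CPM to 55.1 and 52.2 CPM (log2 0.74; edgeR adjusted p = 0.0268), and Mynn from 141.6 and 120.8 to 205.9 and 177.2 CPM (log2 0.55; edgeR adjusted p = 0.0417). Without FK866 replicate 1, only Bcl6 of these 3 was called, and Mynn was not called after removal of the length and GC trend or with no filter.

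Of 23 corepressors and CUL3 partners, all tested, 1 rose and 2 fell, with a median of 0.08; that is 3 calls of 23, beside the 13.2% of all tested genes. Ncor1, the corepressor that BTB domains bind, rose from 226.3 and 258.2 CPM to 371.5 and 357.3 CPM (log2 0.59; edgeR adjusted p = 0.0206). The deacetylase gene Hdac1 fell from 328.9 and 283.5 to 184.1 and 181.5 CPM (log2 -0.74; edgeR adjusted p = 0.00944). Rbx1, the RING subunit of cullin ligases, fell from 260.8 and 291.0 to 205.9 and 186.9 CPM (log2 -0.49; edgeR adjusted p = 0.0423). Ncor1 was not called without control replicate 1 or FK866 replicate 1, and Rbx1 not without FK866 replicate 2 or with the length and GC trend removed; neither was called with no filter. The number called lower was 5 without control replicate 2, 4 without control replicate 1 and 1 without FK866 replicate 2. CUL3 itself (Cul3) had a log2 fold change of 0.11 and did not pass (edgeR adjusted p = 0.764).

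Of 13 genes known as targets of ZBTB factors, 4 rose and 2 fell, beside 5.31% and 7.89% of all tested genes, with a median of 0.12 beside 0.03 over all genes. Cdca7, which ZBTB24 activates, fell from 211.5 and 209.9 CPM in controls to 92.6 and 92.7 CPM with FK866 (log2 -1.19 ± 0.13, SE, n = 2; edgeR adjusted p = 0.00154), while Zbtb24 had the values given above. Mcm10, a replication gene that ZBTB38 represses, fell from 21.0 and 15.8 to 3.41 and 3.62 CPM (log2 -2.39; edgeR adjusted p = 0.00165). Asns, linked to ZBTB1 in leukaemia cells, rose from 68.0 and 48.7 to 170.2 and 134.3 CPM (log2 1.38; edgeR adjusted p = 0.00437). Nfkbia, a target of ZBTB20, rose by 0.94 (edgeR adjusted p = 0.0244), Cdkn2b, a target of MIZ-1, by 2.44 (0.0369) and Sp3, a target of ZBTB10, by 0.53 (0.0403), all on the log2 scale. Cdkn2b was low, at 1.49 and 0.491 CPM in controls and 7.86 and 2.97 CPM with FK866. Without FK866 replicate 1 only 1 of the 4 was called higher, and Cdkn2b was at 1.48, Nfkbia at 0.50. Sp3 was also not called without control replicate 2, without FK866 replicate 2, with no filter or with the length and GC trend removed. The number called lower was 4 without control replicate 1 and 3 without any 1 of the other libraries. DESeq2 called 4 of the 13 lower. Cdkn1a, named above with Zbtb49 and Zbtb5, was not called by edgeR (log2 -0.80, edgeR adjusted p = 0.0789). It was at 264.9 and 170.5 CPM in controls and 155.5 and 95.5 CPM with FK866. Mtfp1 of the list was at 14.4 and 17.1 CPM in controls and 6.53 and 9.88 CPM with FK866. That was not called by edgeR either (log2 -0.94, edgeR adjusted p = 0.0519). Pkm (log2 -0.16), Pfkp (0.16) and Slc2a3 (0.04) of the list were not called either. The activity of the factors was not measured, and several of these genes have other known regulators.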

How the data were processed

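The submitters' processing notes name cutadapt 1.9, HISAT2 2.2.1 and the mm10 build. The authors deposited raw read counts per Ensembl gene ID, 1 column per library. How reads were assigned to genes, and with what strand setting, was not given in the sources used here. Per the labels' protocols, cDNA came from the SMART-Seq HT kit and libraries from Nextera XT, which do not mark the strand. Symbols, positions and exons came from GENCODE M21 (GRCm38, mm10), and promoter windows from RefSeq.

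All 4 libraries entered edgeR 4.0.16 (R 4.3.3; glmQLFit and glmQLFTest, two-sided, TMM scaling, treatment as the only term). Genes were filtered by filterByExpr (minimum count 10, minimum total 15), which left 19194. Calls were made at a Benjamini-Hochberg adjusted p under 0.05 over these genes. CPM uses TMM-scaled totals; CPM per kb divides by the length of the merged exons, which can exceed that of the transcript used. Intervals are 95% and use the fitted standard error. The procedure was tested on simulated data. Alternatives were DESeq2 1.42.0, library totals, upper quartile scaling, a minimum count of 50, no filter, a replicate block, removal of a length and GC trend, and leaving out each library. Replicates differed by more than sampling noise (chi-square per degree of freedom 35.8 for controls and 19.0 for FK866), so each counted as 1 sample. With 2 libraries a group, an exact permutation test of a single value cannot go below p = 0.333. The members and lists were chosen with earlier results of these data known. Genes named with values in every library are members with an adjusted p under 0.1 and the 3 most abundant per length not called; of each list, up to 6 called genes by adjusted p. Others (low members, Gata3, Cdkn1a, Mtfp1 and the named cell type markers) were chosen after their values were seen. Protein features, planned at first, were not analysed here.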

Additional observations from a re-analysis of the deposited data

How the results depend on the processing

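With 2 libraries per group, 1 library can decide a call. All 11 called members kept their direction under each alternative tried. The 8 risers and 3 lower genes were the same genes with library totals and with upper quartile scaling. Leaving out 1 library at a time gave 5 to 9 members higher and 0 to 7 lower, with a median of 0.13 to 0.24. The cause was not tested. The median was 0.26 with library totals, 0.24 with upper quartile scaling, 0.30 with the minimum count of 50, 0.16 with no filter (0.24 over all genes) and 0.23 with DESeq2.

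The replicate numbers in the titles are not said to mark a shared animal or day. Deviations from the group mean correlated at 0.23 between replicate 1 of both groups. The second principal component of the log2 levels held 32.0% of the variance and separated the replicate numbers in both groups. On it, replicate 1 was at 39.8 (control) and 57.8 (FK866), and replicate 2 at -62.0 and -35.6. With a replicate block, 13 members were higher (Zbtb10, Zbtb11, Zbtb33, Zbtb41 and Zbtb46 added) and 6 lower (Zbtb3, Zbtb7c and Zbtb8a added), and 2197 and 3059 of all genes, with 2 BTB zinc finger genes of other symbols lower, 2 corepressors and partners higher and 4 lower, and 4 targets lower.

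Over all genes, 1020 were higher and 1514 lower. The stricter filter gave 1798 higher, and single left-out libraries gave 661 to 1457 higher and 828 to 2462 lower. For corepressors and CUL3 partners, 4 were lower with upper quartile scaling and with the stricter filter, and no filter gave 0 higher and 1 lower; left-out libraries gave 0 to 1 higher and 1 to 5 lower. For BTB zinc finger genes of other symbols, 1 was lower with no filter and with DESeq2, and left-out libraries gave 1 to 3 higher and 0 to 1 lower. For targets, 4 were lower with no filter and with DESeq2, and left-out libraries gave 1 to 4 higher and 3 to 4 lower. Depth limits what can be said of Zbtb8b, at 3 to 37 counts a library, Zbtb12, at 4 to 11 counts, and Zbtb9, listed at 0.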
